A study of Mus musculus with 18 samples.

Results

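The 10 circadian clock genes described here are Arntl, Npas2, Per1, Per2, Per3, Cry1, Gm129, Bhlhe40, Nr1d1 and Dbp, chosen by name from a table of 29942 genes. The choice was made with earlier results of these data known. All 10 were in the table, and all 10 were among the 13975 genes with a mean of at least 1 FPKM (a fragment count scaled by the authors to transcript length and library depth). PolyA RNA was sequenced from the striatum, taken on both sides of the brain above the anterior commissure, in 18 sibling mice of the strain 129Sv/Jae S4, matched for age and sex and housed in groups. The 6 groups of 3 mice had received D-amphetamine hemisulfate, dissolved in 0.9% saline and injected intraperitoneally to a total of 7 mg/kg a day, or intraperitoneal 0.9% saline, and were sampled on day 1, day 7 or day 21. Amphetamine is a psychostimulant that releases dopamine, and the series title links the study to repetitive behaviours that the drug induces. The sources used here do not state the age of the mice, the time of day at sampling or the interval from injection to dissection.

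The mammalian clock is a transcriptional feedback loop that runs in most cells. BMAL1 (the product of Arntl), paired with CLOCK or with its forebrain relative NPAS2, activates genes through E-box sequences, among them its own repressors of the PER and CRY families. A second loop, in which REV-ERB alpha (Nr1d1) represses Arntl, and an output arm of D-box activators such as DBP are driven by the same pair. Per1 and Per2 are also induced by neuronal activity through cAMP response elements (CREs), so the family joins daily timing to acute stimulation in neurons.

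The members spanned about a 12-fold range of length-scaled level. Dbp, the D-box activator, was highest at 113 ± 12.6 FPKM (mean ± SD over 18 libraries), followed by the nuclear receptor gene Nr1d1 at 45.7 ± 4.22 FPKM. Per1 and Bhlhe40, both genes of repressors, stood level at 24.3 ± 3.97 and 24.0 ± 4.43 FPKM. Npas2 followed at 16.6 ± 1.95, Per3 at 15.05 ± 1.59, Gm129 at 13.4 ± 3.34, Per2 at 11.6 ± 2.84, Arntl at 9.76 ± 1.78 and Cry1 at 9.41 ± 1.20 FPKM. Dbp lay above Nr1d1, and Nr1d1 above Per1, in 18 of 18 libraries, and Bhlhe40 lay above Npas2 in 17. The mean differences between Per1 and Bhlhe40, and between each pair of neighbours from Npas2 down to Cry1, were smaller than the larger of the 2 SDs. The spread between animals of a group was smallest for Nr1d1, at a coefficient of variation of 8.66%, and largest for Gm129, at 17.8%.

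**Figure D1:**
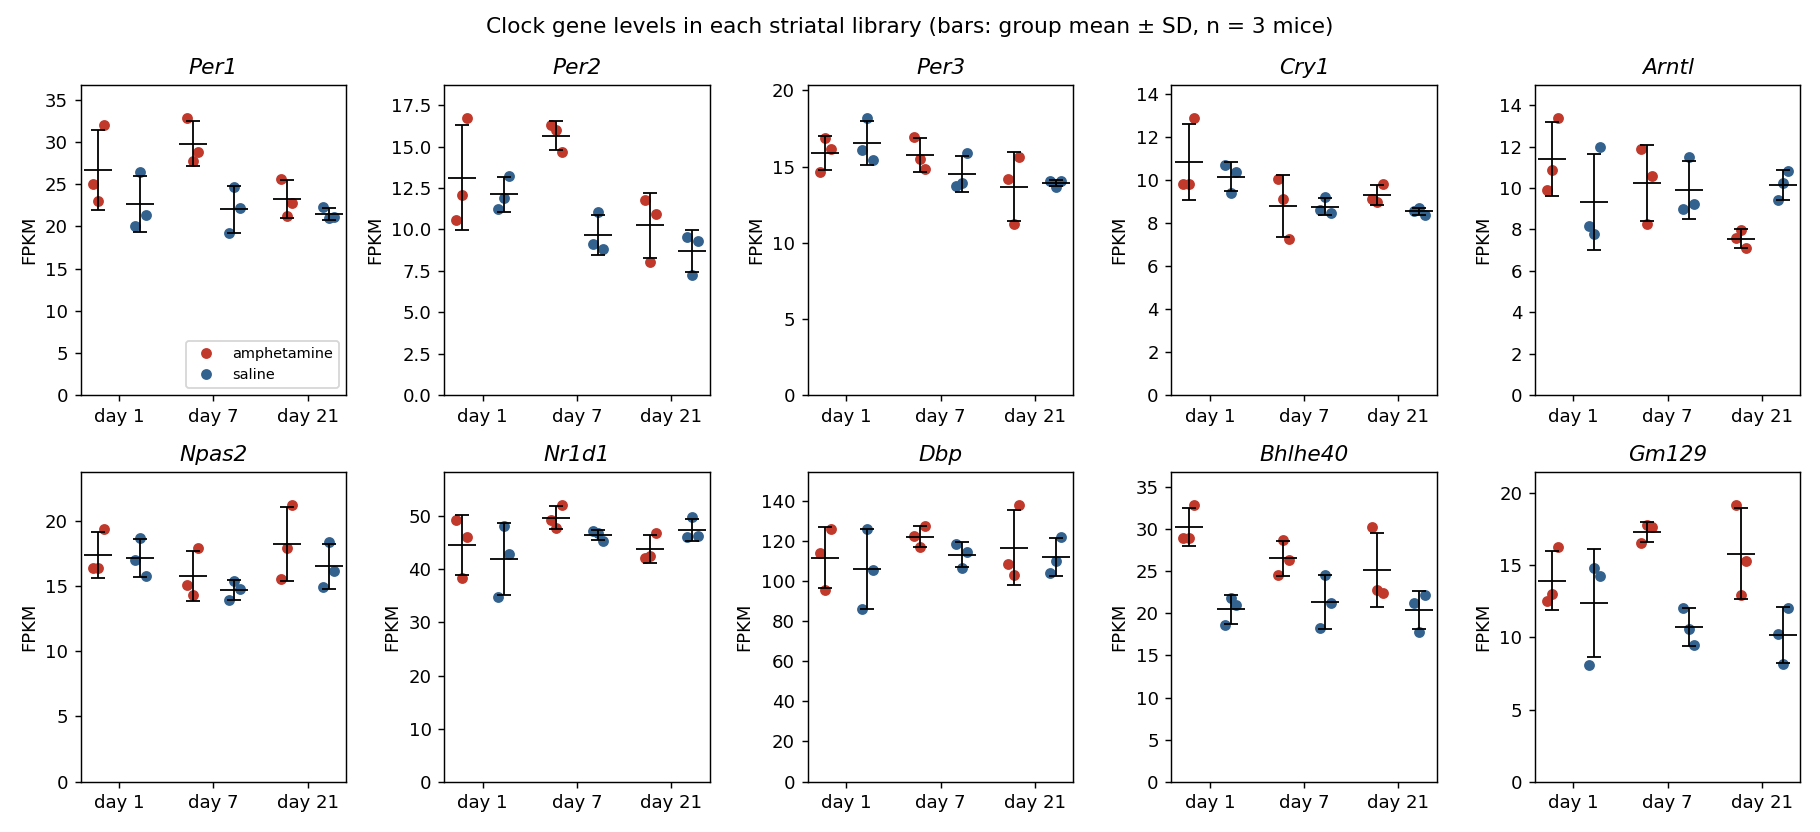
FPKM (vertical axes, from 0) of the 10 clock genes in each of 18 libraries, with amphetamine mice (red) left of saline mice (blue) on days 1, 7 and 21; bars give the group mean ± SD (n = 3 mice). For Bhlhe40 the red points lie above the blue points of the same day on all 3 days, and for Arntl on day 21 they lie below.

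Facts of the whole series bear on these values. Each of the 9 markers of striatal projection neurons was present in every library, with Drd1a, a dopamine receptor gene, at a median of 110 FPKM (lowest 95.2, highest 125) and Ppp1r1b, which encodes DARPP-32, at a median of 1184 FPKM. Markers of neighbouring tissue varied. The summed level of 5 choroid plexus markers ran from 26.6 to 102 FPKM in amphetamine mice and from 10.7 to 19.9 in saline mice on day 1, from 8.63 to 31.3 and from 7.84 to 15.6 on day 7, and from 12.2 to 28.5 and from 10.6 to 38.4 on day 21; no gene of that list was at 0 throughout a group. The 5 markers of cortical glutamatergic neurons averaged, as a summed level, 7.73, 5.53 and 19.01 FPKM in amphetamine mice of days 1, 7 and 21, and 20.4, 7.92 and 33.0 in saline mice, with overlapping ranges on each day. On day 7 the summed level of 2 blood markers ran from 142 to 346 FPKM in amphetamine mice and from 114 to 884 in saline mice. Saline replicate 3 of day 7 had the highest sum of FPKM over all genes, 682270, where the lowest library had 533020. Without it the day 7 log2 differences of Per1, Per2, Bhlhe40 and Gm129 were 0.43, 0.59, 0.31 and 0.57. The part of these markers in the results was not tested. Relative sequencing depth was estimated from the ratios of low FPKM values between libraries. It averaged 0.811, 0.822 and 0.765 of the deepest library in amphetamine mice of days 1, 7 and 21, and 0.884, 0.894 and 0.873 in saline mice. In RNA of whole tissue, fewer cells of a type and less RNA per cell cannot be told apart.

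Amphetamine was compared with saline within each day and over the mean of the 3 days, on log2(FPKM + 1) in 1 limma fit to all 13975 genes. No clock gene passed an adjusted p of 0.05 in any of the 4 comparisons, against 0.00716% of all genes tested on day 1, 0.0215% on day 7, 0% on day 21 and 0.122% in the mean of days. At an unadjusted p under 0.05 and with the amphetamine mice higher, limma gave 1 of 10 members on day 1 (5.32% of all genes), 4 on day 7 (2.83%), 2 on day 21 (2.33%) and 4 in the mean of days (3.63%). With the amphetamine mice lower it gave 0 on day 1 (1.93%), 0 on day 7 (2.09%), 1 on day 21 (3.17%) and 0 in the mean of days (1.73%). Because the members were chosen with earlier results of these data known, their counts beside the shares of all genes are a description. The 4 members found in the mean of days were Bhlhe40, Gm129, Per2 and Per1. With relative depth as a covariate, an alternative added after the data were seen, their log2 differences were 0.38, 0.48, 0.30 and 0.24, beside 0.38, 0.48, 0.31 and 0.25 without it. The median log2 differences of the 10 members were 0.09, 0.11 and 0.11 for days 1, 7 and 21 and 0.08 for the mean of days, where the median of all tested genes was 0.05, 0.0036, -0.02 and 0.0080 in the same comparisons.

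**Figure D2:**
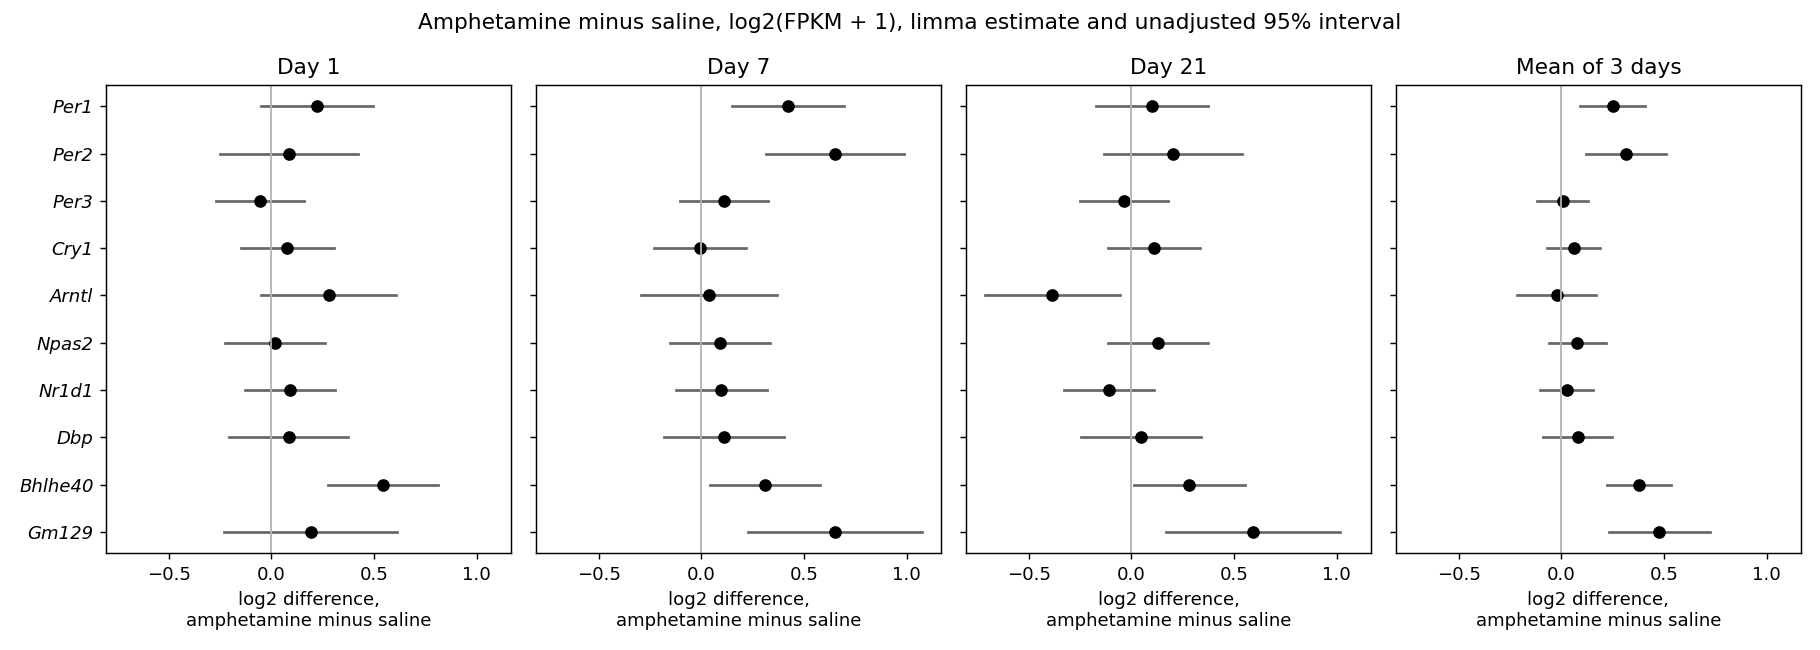
Log2 difference in FPKM + 1, amphetamine minus saline (horizontal axes), for each clock gene on day 1, day 7 and day 21 and in the mean of the 3 days; points are limma estimates and lines unadjusted 95% intervals. In the mean of days the intervals of Per1, Per2, Bhlhe40 and Gm129 lie above 0, and on day 21 that of Arntl lies below.

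Bhlhe40 encodes DEC1, a basic helix-loop-helix repressor that competes for E-boxes and is also induced by many acute stimuli. On day 1 its FPKM was 29.0, 29.0 and 32.9 in amphetamine mice, against 18.6, 21.9 and 21.0 in saline mice. On day 7 it was 24.6, 28.7 and 26.4 in amphetamine mice, against 18.3, 24.6 and 21.2 in saline mice. On day 21 it was 30.3, 22.8 and 22.4 in amphetamine mice, against 21.3, 17.8 and 22.2 in saline mice. Every amphetamine library was above every saline library of its day on all 3 days, a pattern shown by 20 of 13975 tested genes (0.143%), with gaps of 24.61 against 24.57 FPKM on day 7 and 22.41 against 22.16 on day 21 between the nearest libraries. Genes of the same 20 include Fos, Arc, Btg2, Egr1, Junb, Nr4a1 and Dusp1, immediate-early genes, and Bhlhe40 was the clock gene among them. The log2 difference of Bhlhe40 was 0.54 ± 0.13 (SE) on day 1 (limma adjusted p = 0.471), 0.31 ± 0.13 on day 7 (limma adjusted p = 0.896), 0.28 ± 0.13 on day 21 (limma adjusted p = 0.869) and 0.38 ± 0.07 in the mean of days, a 1.30-fold ratio of FPKM + 1. That mean ranked 19 of 13975 genes by p and missed the threshold (unadjusted p = 0.000123, limma adjusted p = 0.0907). The day 21 difference was 0.15 without amphetamine replicate 1 of that day, and with any 1 library left out it ran from 0.15 to 0.36.

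Gm129, now named Ciart, encodes CHRONO, which binds BMAL1 and represses its activity. On day 1 its FPKM was 12.5, 12.98 and 16.3 in amphetamine mice, against 8.07, 14.8 and 14.3 in saline mice, and the groups overlapped. On day 7 it was 16.5, 17.8 and 17.7 in amphetamine mice, against 12.1, 10.6 and 9.45 in saline mice. On day 21 it was 19.2, 12.9 and 15.3 in amphetamine mice, against 10.2, 8.15 and 12.04 in saline mice. The groups did not overlap on days 7 and 21, and the log2 differences were 0.65 ± 0.20 and 0.59 ± 0.20 (SE). Neither passed over all genes (limma adjusted p = 0.822 and 0.869), nor did the mean of days of 0.48 ± 0.11, a 1.39-fold ratio (unadjusted p = 0.000874, limma adjusted p = 0.291). On day 1 the difference was 0.19 ± 0.20 (limma adjusted p = 0.768), and it was -0.07 without saline replicate 1 of that day, which had the lowest Gm129 value of all 18 libraries.

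The promoters of Gm129, Per1 and Per3 are shown for the clock motifs they carry. They are the 250 bases before the RefSeq start on GRCm38.p6, 5′ to 3′, with E-boxes (CACGTG), short CREs (TGACG) and D-boxes (TTATGTAA) in capitals, searched on both strands. The Gm129 window is on the minus strand at chr3:95882229-95882478, that of Per1 on the plus strand at chr11:69098699-69098948 and that of Per3 on the minus strand at chr4:151044666-151044915.
Gm129: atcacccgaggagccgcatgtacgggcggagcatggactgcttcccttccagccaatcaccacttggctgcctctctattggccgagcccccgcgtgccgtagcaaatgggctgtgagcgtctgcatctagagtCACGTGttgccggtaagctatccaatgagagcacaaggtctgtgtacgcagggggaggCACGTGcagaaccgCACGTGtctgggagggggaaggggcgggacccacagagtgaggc
Per1: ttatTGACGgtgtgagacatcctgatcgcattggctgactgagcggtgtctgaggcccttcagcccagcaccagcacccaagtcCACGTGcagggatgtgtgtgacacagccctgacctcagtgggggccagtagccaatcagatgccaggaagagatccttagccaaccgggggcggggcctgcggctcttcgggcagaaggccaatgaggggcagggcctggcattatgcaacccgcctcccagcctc
Per3: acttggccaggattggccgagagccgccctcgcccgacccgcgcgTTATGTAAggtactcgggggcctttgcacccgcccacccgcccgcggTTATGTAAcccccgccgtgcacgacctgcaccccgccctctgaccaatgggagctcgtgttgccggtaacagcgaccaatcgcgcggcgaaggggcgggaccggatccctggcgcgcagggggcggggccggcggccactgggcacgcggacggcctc
The Gm129 window held 3 E-boxes, beginning 116, 58 and 44 bases before the start, and 20 of 32851 RefSeq promoter windows of this length (0.0609%) held at least 3. The Per1 window held 1 E-box and 1 short CRE, a combination in 1.53% of windows, and a second Per1 window at another start held 1 short CRE. The Per3 window held 2 D-boxes, as did 0.0183% of windows. Of the other windows matched, that of Cry1 held 1 E-box and 1 short CRE, and those of Arntl, Npas2, Nr1d1 and Dbp held none of these letters. In all, 8 of 10 members had a window. E-boxes were found in 6.02%, short CREs in 17.8% and D-boxes in 0.819% of all windows. The full CRE (TGACGTCA, in 1.55% of windows, which contains the short CRE on both strands) and the ROR element (GTAGGTCA, 0.517%) were in none of the members' windows, and its core AGGTCA (14.02%, contained in the ROR element) was in the first Per1 window. These matches describe letters in 1 window a start and not binding.

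The 3 Period genes are paralogs whose proteins form the core repressor with the cryptochromes. Per2 had FPKM values of 10.6, 12.1 and 16.7 in amphetamine mice, against 11.2, 11.9 and 13.2 in saline mice on day 1. On day 7 they were 16.3, 15.99 and 14.7 in amphetamine mice, against 9.12, 11.03 and 8.82 in saline mice. On day 21 they were 11.8, 8.01 and 10.9 in amphetamine mice, against 9.53, 7.26 and 9.32 in saline mice. The groups were thus apart on day 7, at means of 15.7 ± 0.857 and 9.66 ± 1.20 FPKM (SD, n = 3 each), and overlapped on days 1 and 21. The day 7 log2 difference was 0.65 ± 0.16 (SE), a 1.57-fold ratio that ranked 24 of all genes by p (unadjusted p = 0.000974, limma adjusted p = 0.567), whereas the differences were 0.09 ± 0.16 on day 1, 0.20 ± 0.16 on day 21 and 0.31 ± 0.09 in the mean of days (limma adjusted p = 0.870, 0.878 and 0.568). The day 21 difference of Per2 ran from 0.09 to 0.36 with 1 library left out.

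Per1, the Period gene most closely tied to acute induction, was 25.0, 23.0 and 32.1 FPKM in amphetamine mice, against 20.1, 26.4 and 21.4 in saline mice on day 1. On day 7 it was 32.9, 27.8 and 28.8 in amphetamine mice, against 19.2, 24.7 and 22.2 in saline mice. On day 21 it was 25.6, 21.2 and 22.8 in amphetamine mice, against 22.3, 21.0 and 21.2 in saline mice. The groups were apart on day 7 and overlapped on days 1 and 21. Its log2 differences were 0.22 ± 0.13 on day 1, 0.42 ± 0.13 on day 7, 0.10 ± 0.13 on day 21 and 0.25 ± 0.07 in the mean of days (SE), and none passed (limma adjusted p = 0.680, 0.822, 0.920 and 0.568). With 1 library left out, the Per1 difference ran from 0.09 to 0.34 on day 1 and from 0.03 to 0.16 on day 21, lowest when replicate 3 (day 1) or replicate 1 (day 21) of the amphetamine mice was omitted. Per3 ran from 14.6 to 16.8 FPKM in amphetamine mice and from 15.4 to 18.2 in saline mice on day 1, from 14.8 to 16.97 and from 13.8 to 15.9 on day 7, and from 11.2 to 15.7 and from 13.7 to 14.1 on day 21. Its groups overlapped on each day, and its difference over the mean of days was 0.0063 ± 0.06 on the log2 scale (95% interval from -0.12 to 0.13, limma adjusted p = 0.999). Whether Per1 or Per2 responded differently from Per3 was not tested.

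Fos, an immediate-early gene that amphetamine induces, is set beside Per1 because both carry responses to neuronal activity. Its FPKM averaged 20.3 ± 3.03 in amphetamine mice and 3.43 ± 0.597 in saline mice on day 7 (SD, n = 3 each), a log2 difference of 2.26, several times that of Per1 on the same day. Fkbp5, a gene induced by glucocorticoids as Per1 also is, averaged 14.9 ± 0.867 and 12.8 ± 0.175 FPKM in the same mice (log2 difference 0.20 ± 0.09, limma adjusted p = 1). In the mean of days 8 of 8 listed immediate-early genes passed the threshold, where 0.122% of all genes did. All were higher with amphetamine, with a median log2 difference of 1.20. Of 8 listed glucocorticoid-induced genes 8 were higher, where 55.6% of all genes were. None passed in limma, 2 had an unadjusted p under 0.05 (5.36% of all genes), and the median was 0.14. Both lists were chosen with earlier results of these data known.

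Cry1, which encodes the cryptochrome partner of the PER proteins, was the member with the lowest mean level. On day 1 its FPKM was 9.84, 9.85 and 12.9 in amphetamine mice, against 10.7, 9.41 and 10.4 in saline mice, and on day 7 it was 10.04, 9.11 and 7.24 in amphetamine mice, against 8.60, 9.22 and 8.48 in saline mice. On day 21 it was 9.14, 8.98 and 9.82 in amphetamine mice, against 8.56, 8.73 and 8.38 in saline mice, and there the groups did not overlap. Its log2 difference on day 21 was 0.11 ± 0.10 (SE, limma adjusted p = 0.884) and over the mean of days 0.06 ± 0.06 (95% interval from -0.07 to 0.19).

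Arntl encodes BMAL1, the activator shared by the complexes with CLOCK and NPAS2. On day 1 its FPKM was 9.91, 10.9 and 13.4 in amphetamine mice, against 8.16, 7.79 and 11.98 in saline mice. On day 7 it was 11.9, 8.26 and 10.6 in amphetamine mice, against 9.01, 11.5 and 9.21 in saline mice. On day 21 it was 7.59, 7.97 and 7.08 in amphetamine mice, against 9.41, 10.2 and 10.8 in saline mice. The groups overlapped on days 1 and 7, and on day 21 every amphetamine library was below every saline library, as for 7.51% of all tested genes on that day. Log2 differences of 0.28, 0.04 and -0.38 were estimated for days 1, 7 and 21, each ± 0.15 (SE), and limma passed none of them (adjusted p = 0.676, 1 and 0.869). Npas2, the partner of BMAL1 in the forebrain, ran from 14.3 to 21.2 FPKM over the amphetamine mice and from 13.9 to 18.6 over the saline mice of the 3 days. Its groups overlapped on each day, with a difference of 0.08 ± 0.07 in the mean of days (95% interval from -0.06 to 0.22).

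Nr1d1, the repressor of Arntl, and Dbp, the output activator, had mean differences of under 0.1 on the log2 scale. Nr1d1 was 49.4, 47.8 and 52.1 FPKM in amphetamine mice, against 47.2, 46.8 and 45.3 in saline mice on day 7, where the groups did not overlap. On day 1 it ran from 38.4 to 49.4 and from 34.8 to 48.2 FPKM, and on day 21 from 42.2 to 46.9 and from 46.2 to 49.8, in amphetamine and saline mice. Its log2 difference was 0.10 ± 0.10 on day 7 and 0.03 ± 0.06 in the mean of days (95% interval from -0.10 to 0.15). On day 1 Dbp averaged 112 ± 15.3 FPKM in amphetamine mice and 106 ± 19.9 in saline mice (SD, n = 3 each). The day 7 means were 122 ± 5.15 FPKM with amphetamine and 113 ± 6.17 with saline, and the day 21 means 116 ± 18.7 and 112 ± 9.35. Its groups overlapped on all 3 days, and the mean of days was 0.08 ± 0.08 (95% interval from -0.09 to 0.25). Saline replicate 1 of day 1 had the lowest Dbp and Nr1d1 values of the 18 libraries, at 86.1 and 34.8 FPKM, and was the 1 mouse of that day with a label number outside the range of the other 5.

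By separation of groups on day 7, the lowest amphetamine library lay above the highest saline library for 5 members (Per1, Per2, Nr1d1, Bhlhe40 and Gm129), where 5.45% of all tested genes did. The numbers were 1 on day 1 (7.73%) and 3 on day 21 (4.76%, Cry1, Bhlhe40 and Gm129). Arntl on day 21 was the 1 member that lay lower, where 7.51% of all genes did. No member lay lower on day 1 (2.91% of all genes) or on day 7 (4.86%).

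Whether the amphetamine difference itself varied between days was tested as an interaction. No member passed in limma, 1 had an unadjusted p under 0.05 (6.25% of all genes), and 0% of all genes passed. That member was Arntl, with an unadjusted p of 0.0266 (limma adjusted p = 0.773), and its difference was 0.66 ± 0.22 (SE) lower on day 21 than on day 1 on the log2 scale. Per2 had an unadjusted p of 0.0556 (limma adjusted p = 0.773), with its difference 0.56 ± 0.22 higher on day 7 than on day 1. Gm129, Per1 and Bhlhe40 had unadjusted p values of 0.235, 0.231 and 0.302 in limma, so the larger Per1 and Gm129 differences of day 7 were not shown to differ from those of the other days.

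Sampling day was then compared over the mean of both treatments. None of the 10 members passed in limma (0% of all genes), and 3 had an unadjusted p under 0.05, where 10.7% of all genes did. They were Per2, Cry1 and Per3. Per2 was 0.38 ± 0.11 (SE) lower on day 21 than on day 1, with means of 13.1 FPKM on day 1, 15.7 on day 7 and 10.2 on day 21 in amphetamine mice, and of 12.1, 9.66 and 8.70 in saline mice (limma adjusted p = 0.309 for the day effect). The order of its day means thus differed between treatments, but its interaction did not pass (limma unadjusted p = 0.0556, adjusted p = 0.773). Cry1 was 0.23 ± 0.07 lower on day 7 and 0.21 ± 0.07 lower on day 21 than on day 1 (limma adjusted p = 0.353 for the day effect), and Per3 was 0.22 ± 0.07 lower on day 21 than on day 1 (limma adjusted p = 0.394 for the day effect). Within amphetamine mice 3 members had an unadjusted p under 0.05 for day (11.2% of all genes, with 0% past the adjusted threshold), namely Per2, Arntl and Per1, and Arntl stood at 11.4 ± 1.79, 10.2 ± 1.83 and 7.55 ± 0.449 FPKM on days 1, 7 and 21 (SD, n = 3 each, limma adjusted p = 0.356). Within saline mice Per2 was the 1 such member (5.95% of all genes, with 0.00716% past the adjusted threshold; limma adjusted p = 0.809). Day of sampling and length of treatment cannot be told apart here. Nor can day 1 be told apart from the animals' numbering in the labels. Of its 6 mice, 5 carry numbers of a range that no mouse of the other days has. The mice of days 7 and 21 share the other ranges.

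Other clock genes were split between higher and lower. Of 26 listed, among them Clock, Cry2, Nr1d2, the ROR receptor genes, the PAR bZIP genes Tef and Hlf and the kinase genes Csnk1d and Csnk1e, 23 were tested. In the mean of days 11 were higher and 12 lower with amphetamine, none passed in limma, 2 had an unadjusted p under 0.05 (5.36% of all genes), and the median log2 difference was -0.0093 against 0.0080 over all genes. Among the smallest p values were those of Gsk3b, a kinase gene (-0.10 ± 0.04), Sfpq, an RNA-binding partner of the PER complex (0.11 ± 0.05), and Nfil3, the D-box repressor (-0.17 ± 0.09), all with SE and limma adjusted p values of 0.910, 0.930 and 0.968. For sampling day they included Sfpq, Wee1, a cell cycle kinase gene under clock control, and Rora, which encodes an activator of Arntl, and none passed (limma adjusted p = 0.291, 0.308 and 0.382). On days 1, 7 and 21 none of the 23 passed in limma, and 3, 2 and 2 had an unadjusted p under 0.05, against 7.25%, 4.92% and 5.5% of all genes.

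Covariation between individual animals was examined on deviations from the group means, so that treatment and day were removed. Of 45 pairs of members 39 had a positive Pearson r (30 under median-of-ratios scaling and 30 under quantile normalization), 7 had an unadjusted permutation p under 0.05, and none passed after adjustment over the 45 pairs (smallest adjusted p = 0.186 for Pearson and 0.229 for Spearman, permutation test within groups, two-sided). The same counts over pairs of all tested genes were not computed, so the 39 and the 7 have no reference beside them. The 7 became 3 without amphetamine replicate 3 of day 1 and 4 without saline replicate 2 of day 7. Positive pairs numbered 31 to 43 with a library left out. The highest coefficient joined Nr1d1 and Dbp, at r = 0.81 (permutation p = 0.0119) and rho = 0.78 (permutation p = 0.00753) over 18 mice. It was 0.80 within amphetamine mice, 0.83 within saline mice and 0.67 without the 2 libraries farthest from the median of Nr1d1. Within the 2 ranges of label numbers that hold at least 6 libraries it was 0.89 (7 libraries) and 0.51 (6 libraries), and the remaining range holds 5. The other 6 pairs lay among Per1, Per2, Bhlhe40, Gm129 and Cry1. They were Per2 with Bhlhe40 (r = 0.66, rho = 0.64, permutation p = 0.0175 and 0.0306), Per2 with Gm129 (r = 0.64, rho = 0.69, permutation p = 0.00961 and 0.0106), Per1 with Per2 (r = 0.63, rho = 0.63, permutation p = 0.0293 and 0.0281), Per1 with Bhlhe40 (r = 0.61, rho = 0.59, permutation p = 0.0156 and 0.0225), Bhlhe40 with Gm129 (r = 0.61, rho = 0.64, permutation p = 0.0207 and 0.0182) and Per2 with Cry1 (r = 0.56, rho = 0.56, permutation p = 0.0251 and 0.0394). Without the 2 farthest libraries these 6 stood at r = 0.64, 0.57, 0.59, 0.58, 0.61 and 0.41. Within amphetamine mice they were 0.58, 0.87, 0.80, 0.47, 0.86 and 0.68, and within saline mice 0.81, 0.56, 0.36, 0.76, 0.48 and 0.15. In the 2 ranges of label numbers they were 0.88, 0.58, 0.89, 0.65, 0.46 and -0.12 in 7 libraries, and 0.48, 0.84, 0.57, 0.33, 0.79 and 0.18 in 6.

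**Figure D3:**
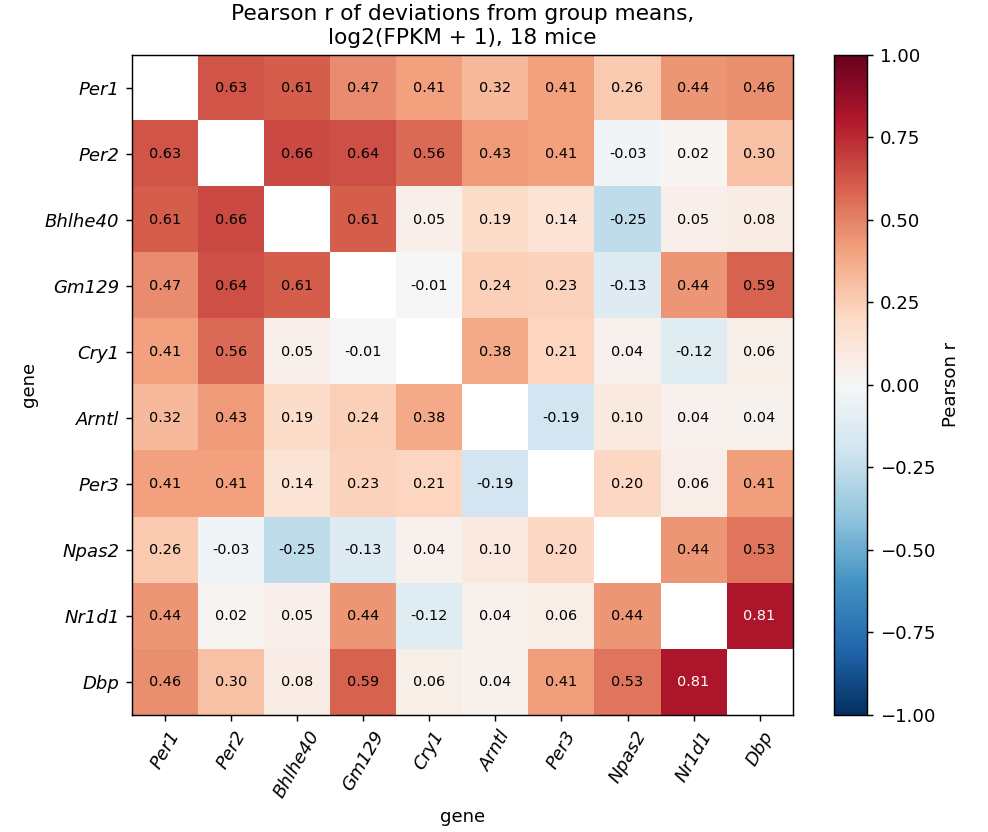
Pearson r for each of the 45 pairs of clock genes, computed on log2(FPKM + 1) deviations from group means in 18 mice; rows and columns are genes, and colour and printed number give r. Per1, Per2, Bhlhe40 and Gm129 share coefficients from 0.47 to 0.66, and Nr1d1 with Dbp stands at 0.81.

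Arntl peaks in other tissues at the opposite time of day to its targets. Across these mice its r with the other members ran from -0.19 with Per3 to 0.43 with Per2 (permutation p = 0.459 and 0.0703), and was 0.38 with Cry1, 0.32 with Per1 and 0.24 with Gm129 (permutation p = 0.253, 0.339 and 0.597). The coefficient was 0.04 with Dbp (rho = 0.03, permutation p = 0.938 for both) and 0.04 with Nr1d1 (rho = 0.06, permutation p = 0.945 and 0.857). The r with Dbp was 0.16 in amphetamine mice and -0.07 in saline mice, and in the 2 larger ranges of label numbers 0.22 and -0.41. Without the 2 farthest libraries the r with Dbp was -0.11, and none of the pairs with Arntl had an unadjusted p under 0.05.

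**Figure D4:**
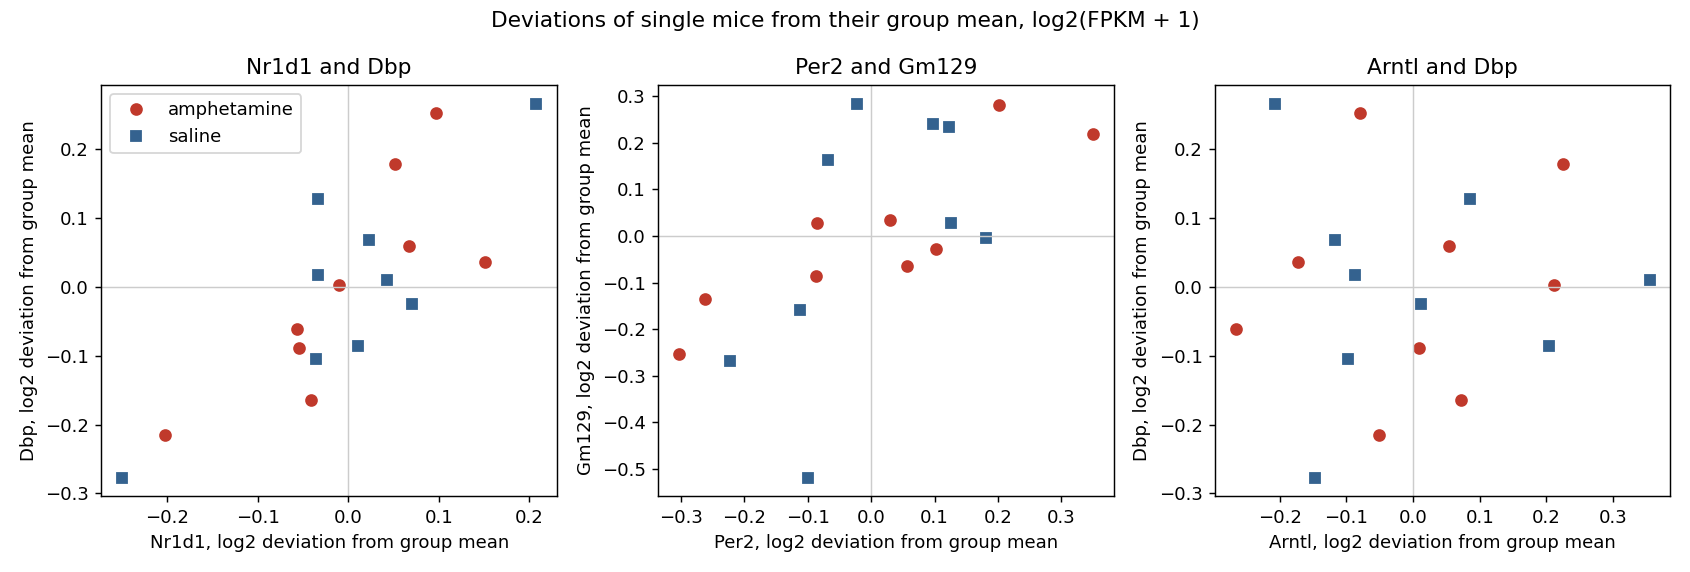
Log2 deviations of single mice from their group mean for Nr1d1 with Dbp, Per2 with Gm129 and Arntl with Dbp, in amphetamine (red circles) and saline mice (blue squares), 18 mice in each panel. The points run along a rising line for Nr1d1 with Dbp (r = 0.81) and show no slope for Arntl with Dbp (r = 0.04).

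The genes most like each of 3 members over the 18 libraries were found by Pearson r of log2(FPKM + 1) among the 13975 tested genes, as a description in which libraries, treatment and depth are shared. For Per1 they were Slc25a25, a mitochondrial carrier gene (r = 0.93), Dnajb5, a co-chaperone gene (r = 0.91), Midn (r = 0.88) and the transcription factor genes Egr4 (r = 0.87) and Fosl2 (r = 0.87). The lowest r belonged to Ypel5 (-0.88), Aebp2 (-0.87) and Ogfrl1 (-0.83). Of the 5 highest, 4 stayed among the first 50 when group means were removed, with Slc25a25 at r = 0.87. Per2 ranked 13 (r = 0.81), Bhlhe40 48 (r = 0.72) and Gm129 119 (r = 0.68) in likeness to Per1 with group means kept. With group means removed these r values were 0.63, 0.61 and 0.47.

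For Dbp the first were Grik5, a kainate receptor subunit gene (r = 0.94), Ankrd13b (r = 0.89), Camkv (r = 0.89), Lingo3 (r = 0.88) and Rap1gap, which encodes an inactivator of the GTPase RAP1 (r = 0.88). Among the lowest were Unc80, a subunit gene of a sodium leak channel (-0.88), and C330007P06Rik (-0.86). All 5 of the highest stayed among the first 50 without group means, and of the other 9 members Nr1d1 ranked highest, at 53 (r = 0.79). For Arntl the first were Trim9 (r = 0.84) and Peli2 (r = 0.83), both genes of ubiquitin ligases, the glycolytic regulator gene Pfkfb3 (r = 0.82), Ppp1r16b (r = 0.79) and the short RNA entry Mir29c (r = 0.78). The lowest were Styx (-0.80), Fnbp4 (-0.79) and Bbs7 (-0.78). All 5 stayed among the first 50 without group means, where Peli2 and Pfkfb3 stood first and second at r = 0.89 and 0.84. Of the other 9 members, Per1 and Per2 ranked highest in likeness to Arntl, at 2235 and 2238 (r = 0.34 for both).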

How the data were processed

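FPKM values were made by the authors and deposited as 1 column per animal (18 columns, 0 of other samples). Bowtie and the genome build mm9 are named per the submitters' processing notes; which versions, quantifier and gene annotation were used is not given in the sources used here. Columns were tied to animals by the numbers in the header. Groups came from the sample titles.

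Because FPKM are scaled values, no count model was applied. Genes with a mean of at least 1 FPKM were tested as log2(FPKM + 1), which understates changes of low genes, with limma (version 3.58.1, R version 4.3.3): 1 mean per group, prior variance as a trend of mean level, 12 residual degrees of freedom, two-sided p values with Benjamini-Hochberg adjustment over 13975 genes and a threshold of 0.05. SDs are between mice of a group, except those of the member levels, which are over all 18 libraries. Pairs of members were tested by 100000 permutations within groups. Relative depth (0.652 to 1) was fitted from the ratios of low FPKM values between libraries. After scaling by it, 58.8% of 2115 low genes were whole multiples of their smallest value within 0.05. Absolute depth in reads is unknown. Library correlations spanned 0.92 to 0.939 inside groups and 0.911 to 0.942 across groups, with no duplicates. Genes beyond the members were named by rule: the 4 smallest p of the other clock genes for the mean of days and for the day effect, and the 5 highest and 3 lowest r for Per1, Dbp and Arntl; some genes that the rule names are not reported here. The members and lists were chosen with earlier results of these data known. Alternatives covered the pseudocount, the filter, scaling, moderation, weights, blocks, label numbers and single libraries; relative depth was added after the data were seen. The limma script was tested on simulated data. Promoter sequences are from RefSeq on GRCm38.p6 and no coordinates of the files' build are used. Whether strand was used in quantification is not given, so reads of a gene and an overlapping antisense gene may be mixed. With 3 mice against 3, an exact permutation test of 1 gene cannot go below 0.1.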

Additional observations from a re-analysis of the deposited data

How the results depend on the processing

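No member passed limma's threshold in any treatment, interaction or day comparison under any of the alternatives run. With the replicate number as a block over all groups, and with 9 pairs of the same day and number, 0 members passed. Bhlhe40 in the mean of days stood at adjusted p = 0.174 and 0.143 in these 2 fits; its range over all settings was 0.0597 to 0.342 (limma), with log2 differences from 0.32 to 0.41. Label numbers adjoin for some mice of the same day and replicate number but opposite treatment. Deviations of same-numbered mice correlated from -0.0565 to 0.102 on day 1 and from -0.0853 to -0.0248 on day 7. On day 21 they correlated from 0.0426 to 0.145. The main fit did not take the numbers as pairs, and no reference value for these correlations was computed. Genes past the threshold in the mean of days numbered 17, and 5 to 28 under alternatives. The counts were 0 to 8 on day 1 (main 1), 0 to 10 on day 7 (main 3), 0 to 6 on day 21 (main 0), 0 to 2 for the interaction (main 0), and 0 to 19, 0 to 18 and 0 to 16 for the day effect over both treatments, in amphetamine and in saline mice (main 0, 0 and 1). Of 45 pairs, 8 passed when group means were not removed, and 0 to 1 passed when a library was left out, the 1 being Bhlhe40 with Gm129 without saline replicate 1 of day 7.

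Some small differences changed sign, none past the threshold in either direction; the cause was not tested. With array weights, Per2 and Gm129 on day 1 were -0.11 and -0.017, Cry1 on day 7 0.018, Dbp on day 21 -0.049 and Per3 in the mean of days -0.0033, and Arntl on day 1, of the same sign as before, was 0.043. With the leading digits of the label number as a covariate, Nr1d1, Dbp and Gm129 on day 1 were -0.035, -0.055 and -0.068, and Nr1d1 in the mean of days -0.016. These values are identical to those without saline replicate 1 of day 1. For them the covariate and the omission of that library are thus the same check. With median-of-ratios scaling and quantile normalization, Npas2 on day 1 was -0.033 and -0.026, and Per3 in the mean of days -0.0052 and -0.00201. With relative depth as a covariate Per3 and Nr1d1 in the mean of days were -0.018 and -0.0088. Leaving out 1 library gave, on day 1, -0.087 to 0.22 for Per2, -0.10 to 0.0099 for Per3, -0.041 to 0.14 for Cry1, -0.059 to 0.078 for Npas2, -0.035 to 0.19 for Nr1d1, -0.055 to 0.22 for Dbp and -0.068 to 0.33 for Gm129. On day 7 it gave -0.097 to 0.11 for Cry1, -0.069 to 0.17 for Arntl and -0.00097 to 0.15 for Npas2. On day 21 it gave -0.13 to 0.091 for Per3 and -0.078 to 0.13 for Dbp. In the mean of days it gave -0.026 to 0.049 for Per3, -0.060 to 0.036 for Arntl and -0.016 to 0.060 for Nr1d1. Bhlhe40, Gm129, Per1, Per2, Cry1, Npas2 and Dbp kept a positive sign in the mean of days in 29 of 29 alternatives. The other filters, robust moderation and the replicate blocks leave these estimates unchanged, so the sign was fixed in those settings.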
